A study of Mus musculus with 6 samples.

Results

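Zeb2 and Zeb1 encode the mouse members of the zinc finger E-box binding homeobox family, and they were followed here through every probeset that the array annotation gives to either gene alone. A probeset is a group of short probes that are read together as 1 signal. That rule found 9 of the 45037 probesets that are not controls, 5 for Zeb2 and 4 for Zeb1. Of the 9, 8 passed the filter on low values, which set aside the dimmest 31% (by mean log2 level) and kept 31076. The genes were picked with the Zeb2 difference between Tg and wt mice already known, so that difference is described below with its standard error (SE) and is not tested.

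Hippocampal RNA came from 3 Tg and 3 wt mice, all untreated males of 9 months on the C57BL/6 background, each hybridised to its own Affymetrix Mouse Genome 430 2.0 array, which makes 6 arrays in all. The Tg mice carry an added gene for glutamate dehydrogenase 1 (Glud1), an enzyme of mitochondria that interconverts glutamate and a citric acid cycle intermediate. The promoter of neuron-specific enolase (Nse) drives it, so the transgene is active in neurons and not in glia, while the wt mice have no transgene. The hippocampus was homogenised whole, so a signal adds up neurons, glia and vessel cells, and fewer cells of a type cannot be told apart from less RNA per cell.

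The ZEB proteins are transcriptional repressors with a cluster of zinc fingers towards either end, each of which reads the letters CACCT, often as part of the E-box CACCTG. They recruit the CtBP co-repressors and the NuRD complex, which removes acetyl groups from histones, and Zeb2 also binds the SMAD proteins that carry TGF-beta and BMP signals into the nucleus. The family is best known for silencing Cdh1, which encodes E-cadherin, and other genes of epithelial adhesion when epithelial cells become migratory. In the brain, Zeb2 is known for its roles in young cortical and hippocampal neurons, in interneuron migration, in the maturation of oligodendrocytes and in microglia, so several cell types of the hippocampus can hold its mRNA.

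The sequence that both proteins read was searched for in the RefSeq promoter windows of build GRCm38.p6, which run from 250 bases before to 50 bases after each annotated start. The search covered both strands, and every CACCTG match also holds CACCT. The longer E-box was found in 20.2% of 32851 windows and in 22.6% of 27025 genes, and the shorter CACCT in 51.9% of windows. The first of the 4 Zeb2 windows is shown because it is the start of the gene whose mRNA the report follows, with its single CACCT in capitals, 21 bases before the start. Below it stand 66 bases around the CACCTG match, in capitals and read on the gene's strand, of Chd4, Dsp and Hes5. These are the genes with a match among those that reached an unadjusted p under 0.05 in the gene lists described further on. Of those 12 genes, Bhlhe40, Pkp2 and Myrf had no window in the table and were not searched. A match is a run of letters and not a measured binding site.
Zeb2, chr2:45117393-45117692, minus strand: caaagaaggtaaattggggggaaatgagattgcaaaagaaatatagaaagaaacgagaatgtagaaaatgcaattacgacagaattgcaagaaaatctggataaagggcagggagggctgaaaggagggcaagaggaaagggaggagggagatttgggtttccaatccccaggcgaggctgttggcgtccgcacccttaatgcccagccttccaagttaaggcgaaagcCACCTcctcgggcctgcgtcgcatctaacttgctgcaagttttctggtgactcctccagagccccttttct
Chd4, chr6:125095920-125095985, plus strand: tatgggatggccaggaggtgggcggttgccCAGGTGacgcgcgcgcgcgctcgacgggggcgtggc
Dsp, chr13:38151267-38151332, plus strand: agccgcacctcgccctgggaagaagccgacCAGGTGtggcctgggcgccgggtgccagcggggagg
Hes5, chr4:154960699-154960764, plus strand: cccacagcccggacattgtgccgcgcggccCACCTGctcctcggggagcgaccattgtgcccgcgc

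In Chd4 the match lies 31 bases before the nearer of its annotated starts, in Hes5 it lies 194 bases before the start, and in Dsp it begins at position 4 of the transcript. In Chd4 and Dsp it is read on the opposite strand, as CAGGTG. None of the 4 Zeb2 windows holds CACCTG, and 3 of them hold CACCT. Zeb2os, a non-coding RNA gene that overlaps Zeb2, has no probeset of its own in the annotation. Where along the Zeb2 and Zeb1 transcripts each probeset reads was not analysed here.

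Facts about the whole array set bear on what follows. No probeset of the 31076 passed limma at an adjusted p under 0.05 (smallest adjusted p 0.143), while at an unadjusted p under 0.05 there were 1837 higher and 1174 lower ones in Tg mice, and 65 were called by Cyber-T, the other test tried. Kept probesets had a median signal of 309.6 to 318.9 on the Tg and of 297.3 to 305.4 on the wt arrays. Ribosomal 18S RNA, read by its 3' control probeset, stood apart on wt 1 (13960) and wt 2 (10375), against 2286.5 on wt 3 and values from 975.5 to 3313 on the Tg arrays. The ratio of the 3' to the 5' Actb control probeset, a sign of RNA integrity, was 1.635 to 1.689 on the Tg and 1.703 to 1.95 on the wt arrays, without overlap, and the part of these differences in the results was not tested. Choroid plexus RNA was nearly missing from Tg 3. Ttr, the main product of that epithelium, read 3915 there, against 40080 and 57638 on Tg 1 and Tg 2. On the wt arrays it read from 44776 to 50822. Other choroid plexus markers also differed between Tg 1 and Tg 2, as given further on. The brightest Glud1 probeset read 5424 ± 268 in Tg against 6009.6 ± 368 in wt mice (SD, n = 3), and whether it detects the mRNA of the transgene was not analysed here, so all directions rest on the labels. The study's real-time PCR and immunoblots were not analysed here either.

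Zeb2 had a higher signal in Tg than in wt mice at its brightest probeset, 1422748_at, which was designed on the RefSeq mRNA. The signals were 7554, 5755 and 7302 on Tg 1, Tg 2 and Tg 3, and 4292.5, 3291 and 4272 on wt 1, wt 2 and wt 3. Every Tg array therefore lay above every wt array, and the lowest Tg signal was 1.34 times the highest wt signal. The means were 6870.4 ± 974 and 3952 ± 573 (SD, n = 3), a ratio of 1.74 and a log2 fold change of 0.80 (SE 0.125). Of the 31076 kept probesets, 900 (2.90%) had a higher log2 fold change.

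A further pair of Zeb2 probesets showed the same separation with smaller differences. At 1458941_at the signals were 636.4, 587.2 and 633.9 on the Tg arrays and 362.3, 408.2 and 445.2 on the wt arrays, a log2 fold change of 0.60 (SE 0.146). The Tg arrays were close to each other there, at 619 ± 27.7, and well apart from the wt arrays at 405 ± 41.5. At 1456389_at the signals were 3188, 2589.7 and 2859 on the Tg arrays and 2180.2, 2394 and 2337 on the wt arrays, a log2 fold change of 0.32 (SE 0.0994). The groups do not overlap, but the gap is narrow: the lowest Tg signal was 1.08 times the highest wt signal.

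The groups overlapped at the remaining Zeb2 probesets. At 1434298_at the Tg arrays read 892.1, 710.9 and 701.3 and the wt arrays 514.3, 557.5 and 840.6, so wt 3 lay above Tg 2 and Tg 3. The log2 fold change of 0.29 (SE 0.184) was 0.50 without wt 3, and it turned to -0.14 when wt 1 and wt 2 were left out and wt 3 stood alone for its group. The dimmest probeset, 1454200_at, which was designed on a cDNA clone, read 75.8, 70.5 and 108 on the Tg arrays and 73.2, 115.7 and 53.3 on the wt arrays. No group was higher there, and the log2 fold change of 0.09 (SE 0.386) was below 0 without Tg 3 (-0.07) or without wt 3 (-0.12) and 0.52 without both wt 1 and wt 2.

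Counted over the gene, 5 of 5 Zeb2 probesets had a positive log2 fold change, with a median of 0.32, and at 3 of 5 every Tg array lay above every wt array. Over all kept probesets the median was 0.02, 16547 of 31076 were positive, and 8.58% had every Tg array above every wt array. Since the genes were chosen on this contrast, nothing is read from either of the Zeb2 counts. The plot of signals by array shows the 9 probesets side by side.

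**Figure D1:**
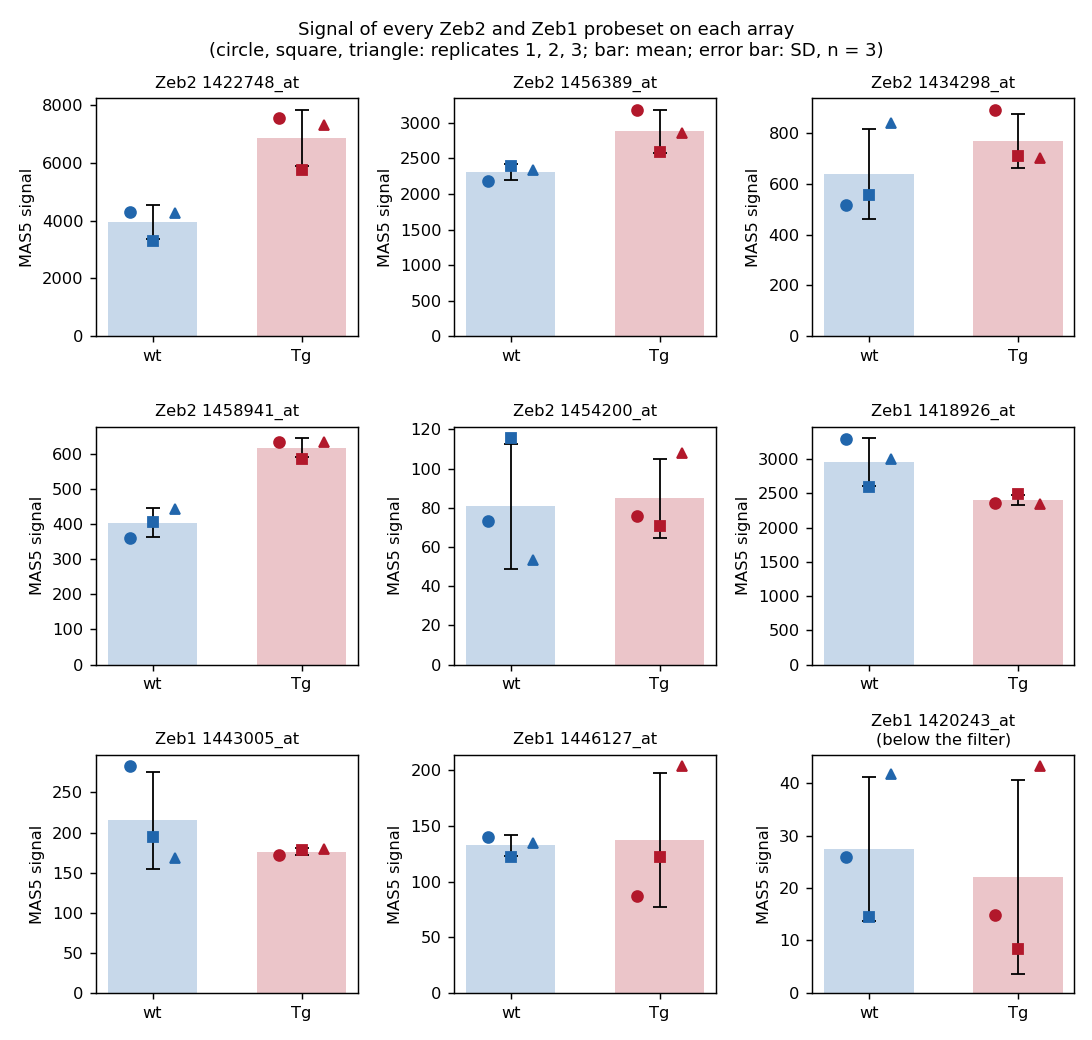
MAS5 signal (linear scale, from 0) of each Zeb2 and Zeb1 probeset on the 3 wt and 3 Tg arrays; points are arrays, bars are group means and error bars are the SD. The groups are fully apart, with Tg higher, at 1422748_at, 1456389_at and 1458941_at of Zeb2 and, with Tg lower, at 1418926_at of Zeb1.

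Arrays of the same group give a view of the probesets that does not use the difference between Tg and wt mice. If several probesets read the same mRNA, an array that is high for its group at one would be high at the others. Among the Tg arrays, Tg 1 was the highest at the 4 brightest Zeb2 probesets, and Tg 2 was the lowest at 1422748_at, 1456389_at and 1458941_at. At 1422748_at the Tg arrays deviated from their group mean by 0.15, -0.24 and 0.10 on the log2 scale. At 1456389_at the deviations were 0.15, -0.15 and -0.00, and at 1458941_at they were 0.04, -0.07 and 0.03.

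The wt arrays did not share 1 order. At 1422748_at wt 2 was the low one, with deviations of 0.13, -0.25 and 0.12 for wt 1, wt 2 and wt 3. At 1434298_at wt 3 was far above the others, with deviations of -0.27, -0.16 and 0.42. At 1458941_at wt 1 was the low one, at -0.15. With 3 arrays in a group these orders are a description only, and each of them rests on differences smaller than those between the groups at 1422748_at.

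Zeb1 went the other way at its brightest probeset, 1418926_at, also designed on the RefSeq mRNA. The signals were 2364, 2489.6 and 2349 on the Tg arrays and 3287, 2587 and 3000.1 on the wt arrays. Every Tg array lay below every wt array, as for 6.67% of all kept probesets, although Tg 2 and wt 2 lay close together. The means were 2401 ± 77.1 and 2958 ± 352 (SD, n = 3), and the log2 fold change was -0.29 (SE 0.102).

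The dimmer Zeb1 probesets did not separate the groups. At 1443005_at the Tg arrays read 171.6, 177.9 and 179.1 and the wt arrays 282.7, 195 and 167.8, so that wt 1 alone was far above the Tg arrays. Its log2 fold change was -0.24 (SE 0.244) with all arrays and -0.04 without wt 1. At 1446127_at the Tg arrays spread from 87.1 to 203.7 around wt signals of 122 to 140.5, with a log2 fold change of -0.02 (SE 0.320) that ran from -0.32 to 0.23 as single arrays were left out. The probeset that failed the filter, 1420243_at, read between 8.3 and 43.2 on all 6 arrays.

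Zeb2 and Zeb1 thus differed in sign at their brightest probesets under each of the 12 other settings tried, with log2 fold changes from 0.67 to 0.92 for 1422748_at and from -0.39 to -0.21 for 1418926_at. The replicate block, which is among these settings, could not change a log2 fold change. Quantile normalization gave 0.82 and -0.26, and centring each array on the median of its kept probesets gave 0.73 and -0.36. The weaker probesets were less stable, as the plot of log2 fold changes by setting shows.

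**Figure D2:**
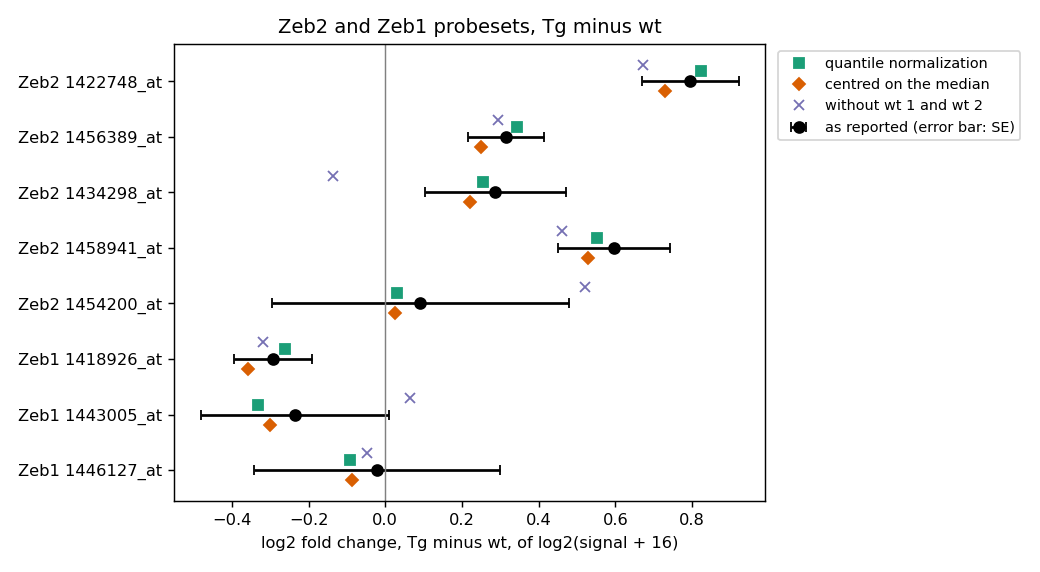
Log2 fold change (Tg minus wt, of log2(signal + 16)) of the 8 kept Zeb2 and Zeb1 probesets; black points with error bars are the values with all arrays and their SE, and coloured marks are 3 other settings. Zeb2 1422748_at stays between 0.67 and 0.82 at these marks and Zeb1 1418926_at below 0, while 1434298_at and 1443005_at cross 0 without wt 1 and wt 2.

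To see which genes had the same pattern as Zeb2 over the arrays, each gene's brightest probeset was centred on its mean over the 6 arrays, and the root mean square (rms) difference to 1422748_at was taken on the log2 scale. This likeness shares the contrast on which Zeb2 was chosen. The nearest of 13853 other genes was Pwwp2a, which encodes a chromatin protein that binds the histone variant H2A.Z, at an rms difference of 0.0643. It read 836.6, 623.7 and 781.5 on the Tg arrays and 500.1, 391.3 and 461.4 on the wt arrays. Like Zeb2, it was lowest in its group on Tg 2 and on wt 2.

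The other 9 nearest genes were Samd5, Hgfac, Rwdd3, Cldnd2, Sfpq, Rmnd1, 9430038I01Rik, Ipw and Dlg4, with rms differences from 0.0744 to 0.138 against a median of 0.497 over all genes. Sfpq, a splicing factor of nuclear paraspeckles, read 4147 ± 534.5 in Tg against 2598 ± 618 in wt mice (SD, n = 3). Dlg4, the main scaffold of the postsynaptic density, read 2168.5 ± 459 and 1333 ± 338.5. Hgfac, which encodes a protease that activates hepatocyte growth factor, and Cldnd2 were dim, with no signal above 97.6. All 10 had a log2 fold change between 0.56 and 0.85.

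Once each gene was centred within its group, which removes the difference between Tg and wt mice, only 1 of these 10 genes was still among the 10 nearest. With a correlation in place of the distance, 4 of the 10 were shared.

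The Zeb2 probesets were not the nearest to each other. The rms difference to 1422748_at was 0.206 for 1458941_at, with 47 genes nearer, 0.293 for 1456389_at, with 302 nearer, and 0.346 for 1434298_at, with 821 nearer. The dimmest, 1454200_at, was at 0.543, farther than the median gene. Zeb1 1418926_at was at 0.567, but at 0.157 once both were centred within groups, where the median gene was at 0.25. A small spread within groups also lowers this value, and only 19.1% of kept probesets had a smaller within-group SD than 1418926_at. No shared pattern is read from it. On wt 2 both probesets were the lowest of their group, while on Tg 2 Zeb1 was the highest (0.05) and Zeb2 the lowest (-0.24).

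**Figure D3:**
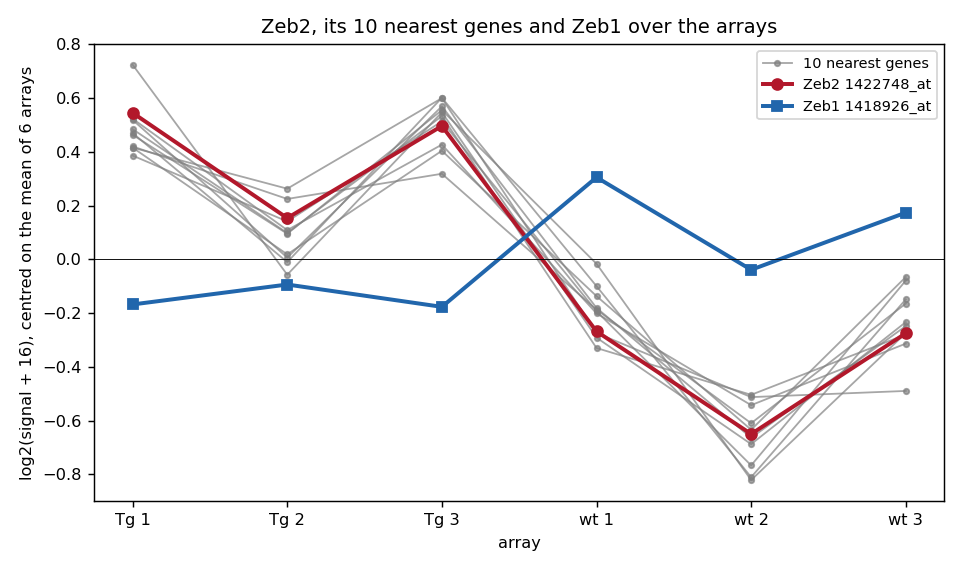
Level, log2(signal + 16) centred on the mean of 6 arrays, of Zeb2 1422748_at (red), its 10 nearest genes (grey) and Zeb1 1418926_at (blue) on each array; lines only join the values of a gene. The grey genes lie above 0 on Tg 1 and Tg 3 and below 0 on the wt arrays, Tg 2 is the lowest Tg array for Zeb2, and Zeb1 is above 0 on wt 1 and wt 3.

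Genes that work with the ZEB proteins or are known to respond to them were taken from 5 lists, at the brightest kept probeset of each gene. Over all 13854 genes, 2.90% were higher and 4.97% lower in Tg mice at an unadjusted p under 0.05 in limma, the median log2 fold change was -0.03, and 44.1% were positive. No gene, listed or not, passed at an adjusted p under 0.05, so the genes named below are those at an unadjusted p under 0.05 and the 2 brightest genes of each list.

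The co-factors showed little difference between the groups. All 19 listed co-factors were measured, with log2 fold changes from -0.18 to 0.29 and a median of -0.01, and at an unadjusted p under 0.05 1 was higher and 0 lower. Cyber-T, adjusted, called 0. That gene was Chd4, the ATP-driven remodeller of the NuRD complex, with signals of 832.3, 860.4 and 977.8 on the Tg and 665, 748.8 and 752.7 on the wt arrays. Its log2 fold change was 0.29 (SE 0.126, limma adjusted p = 0.482), every Tg array lay above every wt array, and the unadjusted p was over 0.05 without Tg 2, Tg 3, wt 1 or wt 3 and after centring on the median. The list's count was 0 without Tg 2, Tg 3 or wt 3.

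Of the 11 NuRD subunits 7 had a positive log2 fold change. Rbbp7 and Rbbp4, histone-binding subunits of that complex and the brightest of the list, read 8339 ± 148 and 5644 ± 715 in Tg and 8414 ± 19.5 and 5869.8 ± 615 in wt mice (SD, n = 3), with log2 fold changes of -0.01 (SE 0.0691) and -0.06 (SE 0.106). For the CtBP proteins, looked at after their values were seen because they are the classical ZEB partners, the log2 fold changes were -0.12 (SE 0.0743) for Ctbp1 and 0.01 (SE 0.0995) for Ctbp2.

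TGF-beta and BMP signalling, in which Zeb2 binds the activated SMAD proteins, also went both ways. All 35 listed genes were measured, 15 with a positive and 20 with a negative log2 fold change and a median of -0.01, and at an unadjusted p under 0.05 2 were higher and 1 lower, while Cyber-T, adjusted, called 0. Among the 9 ligands this was Tgfb2, a secreted growth factor, with signals of 1112, 1334 and 1111 on the Tg and 919.7, 932.9 and 959.9 on the wt arrays. Its log2 fold change was 0.33 (SE 0.116, limma adjusted p = 0.390), with all Tg arrays above all wt arrays.

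Among the 10 receptors there was 1 gene in each direction. Acvr1, a type I receptor for BMPs, read 1055 ± 96.3 in Tg against 849 ± 13.5 in wt mice (SD, n = 3), which is a log2 fold change of 0.30 (SE 0.117, limma adjusted p = 0.437). Acvr2b, a type II receptor for activins, read 144.5 ± 33.1 and 225 ± 25.1, a log2 fold change of -0.60 (SE 0.245, limma adjusted p = 0.460). Neither pair of groups overlapped. The brightest gene was Bmpr2, the type II BMP receptor, at 5783 ± 344 and 5652 ± 596 with a log2 fold change of 0.04 (SE 0.0934).

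None of the 8 SMAD genes reached an unadjusted p under 0.05. The 5 receptor-regulated SMADs lay between -0.17 and 0.14 on the log2 scale, the common SMAD at -0.12, and the inhibitory ones between 0.08 and 0.27. Skil, a nuclear SMAD co-repressor and the other of the 2 brightest genes, had a log2 fold change of 0.05 (SE 0.0858). The count of 3 genes hung on single arrays: it was 1 without Tg 1 or Tg 3 and 6 without wt 1. The unadjusted p of Tgfb2 was over 0.05 without Tg 2. That of Acvr1 was over 0.05 without Tg 1 or Tg 3 and after centring on the median, and that of Acvr2b without Tg 1, Tg 3, wt 1 or wt 3.

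Other factors also bind E-boxes, though not all of them the same letters as the ZEB proteins, and the Id proteins hold some of these factors off DNA. Of the 19 listed genes 15 were measured, while Snai1, Twist1, Neurog2 and Bhlhe22 had no kept probeset of their own. The median log2 fold change was -0.01, and at an unadjusted p under 0.05 2 were higher and 1 lower, while Cyber-T, adjusted, called 0. Bhlhe40, a repressor induced by activity and by the circadian clock, read 1647, 2134 and 1836 on the Tg and 1290.2, 1560.2 and 1458 on the wt arrays, a log2 fold change of 0.38 (SE 0.120, limma adjusted p = 0.335). Its unadjusted p stayed under 0.05 as each array was left out.

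Neurod1, a factor of granule cell differentiation, read 1115 ± 26.0 in Tg against 893 ± 109 in wt mice (SD, n = 3), which is a log2 fold change of 0.32 (SE 0.122, limma adjusted p = 0.427). Id3 was the lower gene, at 911 ± 70.9 and 1119.7 ± 143, a log2 fold change of -0.29 (SE 0.127, limma adjusted p = 0.496). Each of these was over 0.05 as some arrays were left out, Neurod1 without Tg 3 or wt 1 and Id3 without any of Tg 2, Tg 3, wt 1 and wt 2, and the list then counted 1 gene without Tg 3. Neurod1 was also over 0.05 after centring on the median.

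Neither of the 2 brightest genes of this list reached an unadjusted p under 0.05. Tcf4, an E protein that pairs with neuronal factors, had a log2 fold change of 0.00 (SE 0.0824), and Id4 one of -0.20 (SE 0.115, limma adjusted p = 0.608).

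The epithelial genes known as targets of the ZEB repressors were mostly dim, and they did not share a direction. Of 21 listed genes 16 were measured, and Cdh3, Cldn3, Cldn7, Esrp1 and Esrp2 fell below the filter. The median log2 fold change was -0.09, with 6 positive and 10 negative, and at an unadjusted p under 0.05 2 were higher and 1 lower. Cdh1, the textbook target, read 31.2, 45.7 and 76 on the Tg and 30.9, 153.1 and 197 on the wt arrays, with a log2 fold change of -0.89 (SE 0.559, limma adjusted p = 0.639). It was looked at after its values were seen.

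The higher genes were both desmosomal. Dsp, which encodes desmoplakin and is also a marker of dentate gyrus granule cells, read 1146, 1173.5 and 1027 on the Tg arrays and 458.1, 330.3 and 912 on the wt arrays. All Tg arrays lay above all wt arrays, but wt 3 lay much nearer to the Tg than to the other wt arrays. Its log2 fold change of 1.08 (SE 0.271, limma adjusted p = 0.235) ran from 0.77 to 1.48 as single arrays were left out and was 0.28 without both wt 1 and wt 2. It was the 1 gene of the list that Cyber-T called (adjusted p = 0.0494).

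Pkp2, a desmosomal plakophilin, read 1471 ± 242.5 in Tg against 1151.5 ± 122 in wt mice (SD, n = 3), with overlapping groups and a log2 fold change of 0.34 (SE 0.136, limma adjusted p = 0.453). Its unadjusted p was over 0.05 without Tg 1, Tg 3 or wt 2 and after centring on the median. Ovol2, a zinc finger factor that keeps epithelial cells epithelial, was the lower one, dim at 48.3 ± 23.1 and 107 ± 14.1 and with a log2 fold change of -0.998 (SE 0.410, limma adjusted p = 0.464). It was over 0.05 without Tg 1, Tg 2, wt 1 or wt 3, and without Tg 1 the list counted 1 gene.

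Choroid plexus is an epithelium beside the hippocampus, and its RNA varied strongly among the Tg arrays. The log2 fold change was negative for all 7 measured choroid plexus markers (median -0.77), none at an unadjusted p under 0.05, although the mean signal was higher in Tg mice for 5 of the 7. Without Tg 3, an alternative chosen after seeing the data, 6 of the 7 were positive (median 0.37). The mean marker level, centred on the 6 arrays, was -0.32, 1.54 and -2.33 on Tg 1, Tg 2 and Tg 3. On wt 1, wt 2 and wt 3 it was 0.46, 0.42 and 0.23, so Tg 2 lay above and Tg 1 below the wt arrays. The summed signal of the markers, most of it Ttr, ran from 4637 to 67620 on the Tg arrays. It ran from 48369 to 54867 on the wt arrays, and no marker was at 0 (lowest signal 8.5). On Tg 3, the array with the least choroid plexus RNA, 6 of the 16 epithelial genes had their lowest and 8 their highest signal among the Tg arrays. The part of choroid plexus RNA in these values was not tested. The CACCTG match was common in this list, in 10 of the 12 genes with a promoter window (83.3%), all but Jup and Ovol2, against 22.6% of all genes. The genes were listed as known targets of proteins that read this sequence, so nothing is read from the high share. Cdh1 had no window, and Cldn3 and Cldn7, which had a match, were below the filter. In the other lists the share ran from 1 of 17 genes with a window among the co-factors to 4 of 9 among the neural genes below.

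The last list held genes that earlier work on neural cells linked to Zeb2. Of 15 listed genes 13 were measured (not Ntf3 and Nkx2-1), with a median log2 fold change of -0.04, and at an unadjusted p under 0.05 1 was higher and 1 lower, while Cyber-T, adjusted, called 0. The lower gene was Hes5, a repressor downstream of Notch that keeps neural precursors undifferentiated. It read 157.6, 178.8 and 112.5 on the Tg and 379.7, 256.1 and 468.8 on the wt arrays. The groups lay well apart, with a log2 fold change of -1.20 (SE 0.261, limma adjusted p = 0.222). Its unadjusted p stayed under 0.05 as each array was left out, and the log2 fold change ran from -1.42 to -1.01. Like those read here for Rbbp4, Pkp2, Ttr, Nr4a2 and Cnp, the probeset is of a type whose probes may also match other transcripts. The related genes Hes1, Hey1, Hey2, Id2 and Id4 lay between -0.20 and 0.03.

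The higher gene was Myrf, which encodes the regulator of myelin genes. It read 1069, 1083 and 1229 on the Tg and 1039, 725.3 and 584.9 on the wt arrays, so that Tg 1 and wt 1 were close. The log2 fold change was 0.55 (SE 0.179, limma adjusted p = 0.338), and it was 0.37 without wt 3, where its unadjusted p passed over 0.05 and the list counted 1 gene. Mbp, which encodes myelin basic protein and was the brightest gene of the list, read 39588 ± 2938 and 36969 ± 924 (SD, n = 3), with a log2 fold change of 0.10 (SE 0.0712). Myrf and Mbp are also oligodendrocyte markers, and over the 11 measured markers of that cell type 3 were positive, with a median of -0.11.

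**Figure D4:**
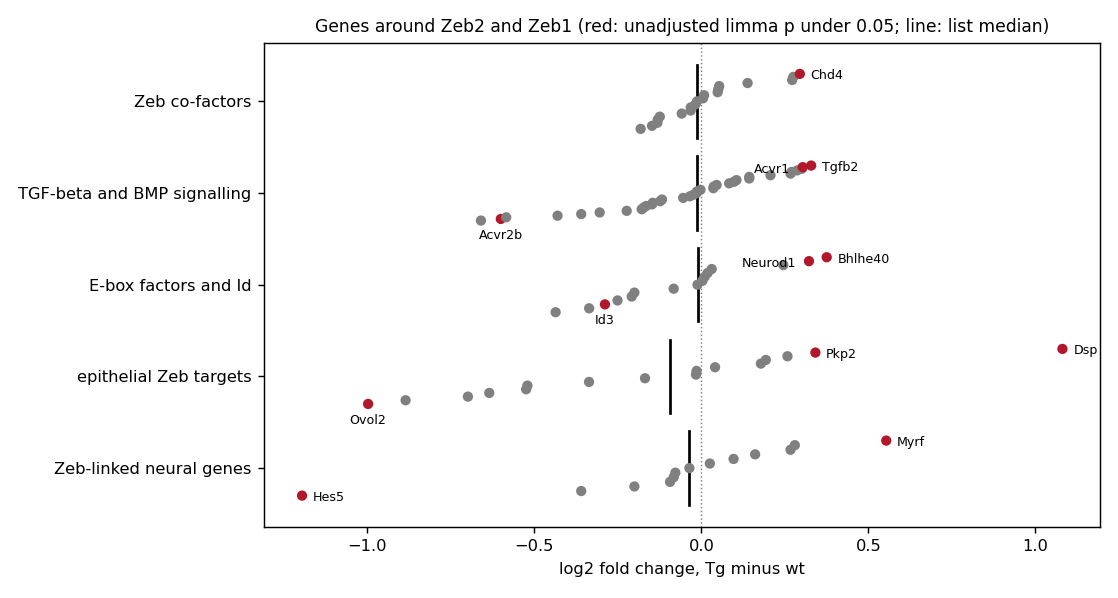
Tg minus wt difference, as log2 fold change, of the measured genes in the 5 lists, at its brightest kept probeset; each point is a gene, red points have an unadjusted limma p under 0.05 and black lines are the list medians, which lie between -0.09 and -0.01. Points are spread vertically only to separate them; Dsp (1.08) and Hes5 (-1.20) lie farthest from 0.

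Marker genes of the hippocampal regions and cell types also differed between the groups in part, and their levels stand here beside those of Zeb2. For dentate gyrus granule cells the log2 fold change was positive for 12 of 12 measured markers (median 0.29), 4 of them at an unadjusted p under 0.05, and their summed signals overlapped, from 21498 to 24032 on the Tg and from 16906 to 21907 on the wt arrays. For the subiculum and retrohippocampal cortex it was negative for 6 of 6 markers, 3 of them at an unadjusted p under 0.05 (median -0.38, sums of 6538 to 7632 and 8752 to 9208). For GABAergic interneurons it was negative for 9 of 9, 5 of them at an unadjusted p under 0.05 (median -0.35, sums of 19769 to 23375 and 24142 to 29450). Of the CA pyramidal cell markers 6 of 9 were positive, and 3 higher and 1 lower markers had an unadjusted p under 0.05 (median 0.25, sums of 11649 to 13592 and 11800 to 12178). Over all genes 44.1% were positive, and 2.90% were higher and 4.97% lower at an unadjusted limma p under 0.05. No marker of these lists was at 0, the lowest signal being 117.

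The brightest markers give the size of these differences. Calb1, a calcium buffer of granule cells, read 5769 ± 404 in Tg against 5027 ± 699.8 in wt mice (SD, n = 3), and C1ql3, a synaptic protein of the same cells, 4721 ± 160 and 4160.2 ± 738. Gad1, which makes GABA, read 9191 ± 637 and 10193 ± 1924, and Sst, the precursor of somatostatin, 3701 ± 508 and 5127 ± 292. Lxn and Nr4a2 of the retrohippocampal list had log2 fold changes of -0.28 (SE 0.109) and -0.09 (SE 0.104). For Rgs14, which marks the CA2 field, it was 0.28 (SE 0.106), and for Wfs1, which marks the CA1 field, -0.29 (SE 0.114).

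Markers of glial and vessel cells, some of them types known to hold Zeb2, mostly had negative values, where 44.1% of all genes were positive. Microglia markers were positive for 3 of 10 genes (median -0.15, sums of 16768 to 17755 on the Tg and 18209 to 19937 on the wt arrays), with Csf1r at -0.18 (SE 0.0757) and Ctss at -0.11 (SE 0.0913). Oligodendrocyte markers summed to between 65898 and 82212 on the Tg and between 68457 and 82649 on the wt arrays, with Cnp at -0.20 (SE 0.157), and precursor markers were positive for 0 of 5, with Olig1 at -0.22 (SE 0.106) and Pdgfra at -0.22 (SE 0.133). Astrocyte markers were positive for 1 of 10, with Slc1a2 at -0.03 (SE 0.0704) and Aldoc at -0.16 (SE 0.0712), and endothelial and mural markers for 2 of 11, with Rgs5 at -0.13 (SE 0.135) and Slco1c1 at -0.05 (SE 0.147). None of these markers was at 0, the lowest signal being 51.5. At an unadjusted limma p under 0.05, microglia had 0 higher and 1 lower markers, oligodendrocytes 1 and 0, and precursors 0 and 0. Astrocytes had 0 and 2, and endothelial and mural cells 0 and 1, against 2.90% and 4.97% of all genes. The sums did not overlap for microglia (given above) or astrocytes (79253 to 85392 on the Tg and 86337 to 90668 on the wt arrays). Those of precursors did not overlap either (6997 to 7911 on the Tg and 8168 to 9727 on the wt arrays).

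Array by array, the Zeb2 probesets stood in different relations to the granule cell markers. Centred on the 6 arrays, the mean level of those markers was 0.09, 0.34 and 0.24 on the Tg and -0.43, -0.29 and 0.05 on the wt arrays. At 1422748_at Tg 2, the array with the highest markers, was the lowest Tg array, and wt 1 and wt 3 had nearly equal signals (4292.5 and 4272). At 1458941_at and 1434298_at the wt arrays followed the order of the markers, with wt 1 lowest and wt 3 highest. Over the Tg arrays no Zeb2 probeset followed the order of the granule cell markers. The CA pyramidal cell markers (0.19, 0.04 and -0.05 on Tg 1, Tg 2 and Tg 3) had the order of 1434298_at there. Over the wt arrays (-0.05, -0.04 and -0.10) they did not. The remaining marker lists were not compared in this way.

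Leaving out wt 1 and wt 2, the arrays with the most 18S ribosomal RNA and the lowest granule cell markers, changed the log2 fold changes unequally. The log2 fold change was 0.67 in place of 0.80 at 1422748_at, 0.46 in place of 0.60 at 1458941_at and 0.29 in place of 0.32 at 1456389_at. At 1434298_at it was -0.14 in place of 0.29, and at 1454200_at 0.52 in place of 0.09. The part of cell type composition in the Zeb2 values was not tested.

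**Figure D5:**
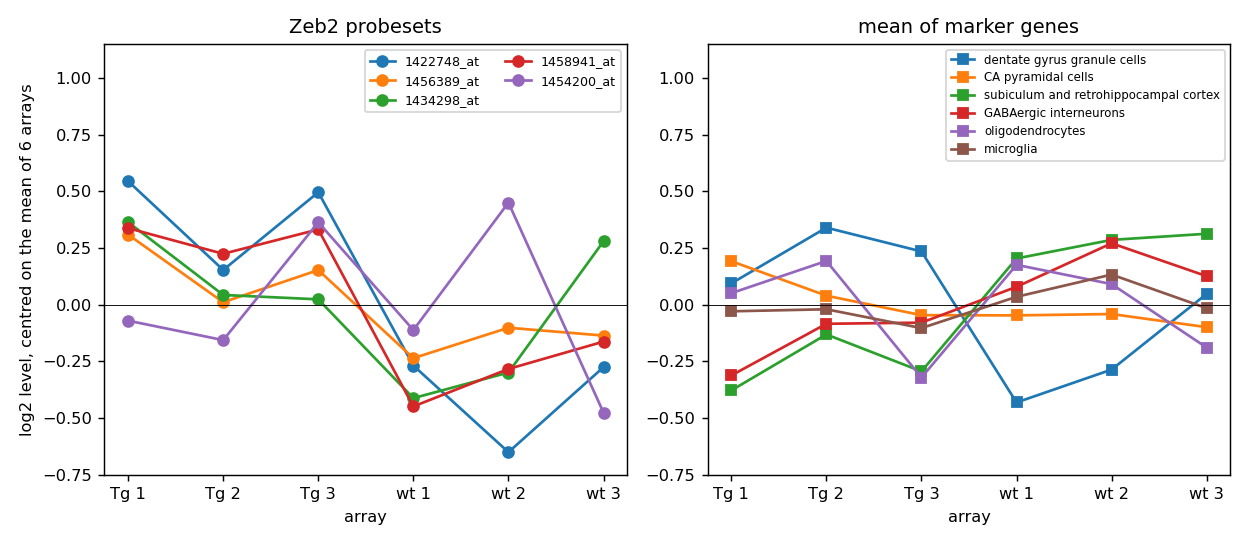
Level on the log2 scale, centred on the mean of 6 arrays, of the 5 Zeb2 probesets (left) and the mean of the marker genes of 6 cell types or regions (right) on each array; lines only join the values of a probeset or list. Zeb2 1422748_at is highest on Tg 1 and Tg 3, while the granule cell markers are highest on Tg 2 (0.34) and lowest on wt 1 (-0.43).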

How the data were processed

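Expression was measured in hippocampal RNA of 3 Tg and 3 wt mice on Affymetrix Mouse Genome 430 2.0 arrays, 1 per mouse. The deposited intensities are linear signals, 1 per probeset, which the authors computed with MAS5, scaled to a common trimmed mean on each array. The study's own RMA values, SAM calls and scanned images were not analysed here. Of 45101 probesets, 64 controls were set aside, 34945 of the rest are annotated to 1 gene, 932 to several and 9160 to none, and the lowest 31% by mean log2 level were left out (lowest mean kept 48.8). Groups follow the sample titles. Values were taken as log2(signal + 16), which understates the differences of dim probesets, and fitted with limma 3.58.1, run in R 4.3.3 (a mean per group, intensity trend, Benjamini-Hochberg adjustment over 31076 probesets, two-sided). Replicates are separate mice, and 3 arrays per group limit the precision. Genes were represented by their brightest kept probeset annotated to them alone. Named in the text were all Zeb probesets, the 10 genes nearest to Zeb2, list genes at an unadjusted p under 0.05 and the 2 brightest genes of each list. The members, lists and tests were chosen with earlier results of these data known. The scripts were tested on simulated data. Promoter windows are from RefSeq (GRCm38.p6). Tables used Python 3.11.15 and pandas 2.3.3, and plots matplotlib 3.10.9. Alternatives were other added constants, normalizations, filters, variance models, Cyber-T, the thresholds of the methods, the replicate block and arrays left out.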

Additional observations from a re-analysis of the deposited data

How the results depend on the processing

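The directions of Zeb2 1422748_at, 1456389_at and 1458941_at and of Zeb1 1418926_at held under all 12 alternatives run for them. The replicate block, which is among these alternatives, could not change a log2 fold change. Without both wt 1 and wt 2, when wt 3 alone stands for its group, the log2 fold change was -0.14 for 1434298_at, 0.46 for 1458941_at, 0.52 for 1454200_at and 0.06 for 1443005_at. Over all kept probesets, centring on the median gave 1226 higher and 2162 lower in place of 1837 and 1174 at an unadjusted p under 0.05, quantile normalization 1555 and 1261, and the 1.3-fold threshold of the methods 1521 and 627. Without both wt 1 and wt 2 there were 545 lower ones. As single arrays were left out the counts ran from 1128 (without Tg 3) to 2211 higher and from 886 to 1381 lower. At an adjusted p under 0.05 Cyber-T called 65 and limma from 0 to 6 with an array left out (6 without Tg 2, and 1 each without wt 1 or wt 3). The cause of these shifts was not tested. Arrays of the same replicate number did not deviate together (correlations of deviations -0.0159, 0.00779 and 0.0333 for numbers 1, 2 and 3). With the replicate number as a block, 1 probeset passed at an adjusted p under 0.05. The Zeb log2 fold changes could not move there, because each number has 1 Tg and 1 wt array.

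For the gene lists, the count at an unadjusted p under 0.05 was 1 for the co-factors, 3 for TGF-beta and BMP signalling, 3 for the other E-box factors, 3 for the epithelial genes and 2 for the neural genes. The co-factors counted 2 with Cyber-T, with array weights or when a gene's kept probesets were averaged, and 0 without the trend or with the 1.3-fold threshold. TGF-beta and BMP signalling counted 1 without both wt 1 and wt 2, with the 1.3-fold threshold or when probesets were averaged. The other E-box factors counted 1 without the trend or without both wt 1 and wt 2, and 0 with the 1.3-fold threshold, and the epithelial genes 1 without both wt 1 and wt 2. With single arrays left out the counts ran from 0 to 1 for the co-factors, 1 to 6 for TGF-beta and BMP signalling, 1 to 3 for the other E-box factors, 1 to 4 for the epithelial genes and 1 to 3 for the neural genes. Of the 10 genes nearest to Zeb2, 4 were shared with those by correlation, 7 with those after quantile normalization and 10 after centring on the median.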
